A study of Mus musculus with 17 samples.

Results

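Voltage-gated calcium channels were examined in the cortex of Hnrnph2-mutant mice through 10 genes. They were chosen by symbol from the 55453 distinct gene symbols of the expression table. Cacna1a, Cacna1b, Cacna1c, Cacna1d, Cacna1e, Cacna1g, Cacna1h and Cacna1i encode the pore-forming α1 subunit, and Cacna2d1 and Cacna2d3 encode α2δ, an auxiliary subunit outside the membrane. All 10 were in the table, and all 10 had a mean of at least 1 TPM (a measure of the share of a gene's transcripts in the library after scaling for transcript length). That minimum left 16265 genes for testing. Every value of the 10 genes lay above 8 TPM, so none passed the minimum through one group alone.

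The study asked how hnRNPH2, which binds RNA and is encoded on the X chromosome, acts in the brain when it is lost or carries a disease-linked substitution. Bulk cortex came from 17 male mice on the C57BL/6J strain in 6 groups, with no treatment named. At 8 weeks of age there were 3 hemizygous Hnrnph2 KO mice with 3 wild-type controls, and 3 hemizygous R206W mice with 3 wild-type controls. At 3 weeks there were 3 hemizygous P209L mice and, analysed here, 2 wild-type controls. The KO line came from an indel that arose during the making of the knockins and introduced a premature stop. The mutations are constitutive, in every cell of the body. The P209L line was sampled at 3 weeks only, so its line and its age cannot be told apart.

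These channels open when the membrane depolarizes and let calcium enter the cell. P/Q-type (Cacna1a) and N-type (Cacna1b) channels trigger transmitter release at nerve terminals, R-type channels (Cacna1e) contribute there and in dendrites, and L-type channels (Cacna1c and Cacna1d) couple electrical activity to gene transcription. T-type channels (Cacna1g, Cacna1h and Cacna1i) open near the resting potential and support burst firing. The α2δ subunits carry the pore to the cell surface and to synapses, and Cacna2d1 encodes the main binding site of gabapentin.

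Hnrnph2 was between 21.3 and 24.4 TPM in the KO mice and between 80.5 and 144.7 TPM in their controls, a log2 change of −2.30 ± 0.17 (SE, adjusted p = 8.64e-06). The tissue label was met by markers of cortical excitatory neurons, with Slc17a7 between 495.4 and 912.5 TPM, Camk2a between 597.2 and 1704 TPM, Neurod6 between 34.0 and 74.3 TPM and Tbr1 between 27.0 and 68.2 TPM. Markers of other regions were present too. Over all mice striatum markers summed to between 63.1 and 119.8 TPM and thalamus markers to between 21.7 and 33.8 TPM. Cerebellar granule cell markers summed to 6.24 TPM in 1 KO mouse and to at most 0.38 TPM in any mouse of another group. The part of these regions in the channel levels was not tested. KO control 1 stood apart. Transcripts of mitochondrial genes made up 20.1% of its TPM (10.7% to 15.4% in the other mice), and it was the lowest of the 12 8-week mice in 10 of the 10 channel genes. After division by size factors it was still the lowest in 9. P209L control 2 had choroid plexus markers summing to 1769 TPM, against 9.61 TPM in P209L control 1 and at most 26.5 TPM in any other mouse. TPM holds no read counts, so the depth of each library is unknown and precision was judged from the spread between mice.

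Gene positions are those of GENCODE M21 on GRCm38, which is the mm10 build of the submitters' processing notes. Cacna1a (ENSMUSG00000034656.17) lies at chr8:84388440-84640246 on the plus strand, Cacna1b (ENSMUSG00000004113.18) at chr2:24603887-24763152 on the minus strand and Cacna1e (ENSMUSG00000004110.16) at chr1:154390731-154884501 on the minus strand. The L-type genes are Cacna1c (ENSMUSG00000051331.15) at chr6:118587240-119196418 and Cacna1d (ENSMUSG00000015968.17) at chr14:30039939-30491455, both on the minus strand. The T-type genes are Cacna1g (ENSMUSG00000020866.17) at chr11:94408391-94474198 and Cacna1h (ENSMUSG00000024112.16) at chr17:25374285-25433783, both on the minus strand, and Cacna1i (ENSMUSG00000022416.15) at chr15:80287238-80398279 on the plus strand. Cacna2d1 (ENSMUSG00000040118.15) lies at chr5:15934691-16374511 on the plus strand and Cacna2d3 (ENSMUSG00000021991.9) at chr14:28904943-29721864 on the minus strand. The counting behind the table is not stated to use strand. Cacna1c overlaps Dcp1b (mean 10.95 TPM) on the opposite strand and Cacna1d overlaps Dcp1a (9.29 TPM) and Chdh (0.836 TPM), so a part of the reads of these pairs could have been shared. The genes facing Cacna1h (Tpsg1) and Cacna2d3 (Lrtm1) were near 0 TPM.

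The genes are long and differ in base composition. Their spans ran from 59499 bases (Cacna1h) to 816922 bases (Cacna2d3), against a median of 25397.5 bases over 13400 tested protein-coding genes. Proteins of the hnRNP H family bind runs of guanines in RNA, so runs of at least 3 guanines were counted in the longest M21 coding transcript of each gene. Cacna1i (19.5 runs per kb), Cacna1g (19.1) and Cacna1h (18.1) lay above 90.6%, 89.1% and 85.4% of tested genes, and their G+C content lay between 58.1% and 59.95%. Cacna2d1, with 6.86 runs per kb and 40.7% G+C, lay above only 7.26% of genes in runs. The 3 T-type genes are thus the richest of the 10 in guanine runs and Cacna2d1 is the poorest, which describes the transcripts and is no measure of binding.

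The 250 bases before the annotated start are shown for Cacna1b, Cacna1i and Cacna2d1. Levels of Cacna1b and Cacna1i in all 3-week mice lay below those of every 8-week mouse other than KO control 1. The same held for Cacna1c and Cacna1e, whose windows are not shown. Cacna2d1 had the highest estimate above 0 in R206W mice and in P209L mice, without passing the threshold in either. The sequences are from RefSeq (GRCm38.p6), read in the direction of transcription, for chr2:24763153-24763402 (minus strand), chr15:80286988-80287237 (plus strand) and chr5:15934441-15934690 (plus strand). Capitals mark matches to the GC box GGGCGG, on either strand, and matches that overlap run together.
Cacna1b: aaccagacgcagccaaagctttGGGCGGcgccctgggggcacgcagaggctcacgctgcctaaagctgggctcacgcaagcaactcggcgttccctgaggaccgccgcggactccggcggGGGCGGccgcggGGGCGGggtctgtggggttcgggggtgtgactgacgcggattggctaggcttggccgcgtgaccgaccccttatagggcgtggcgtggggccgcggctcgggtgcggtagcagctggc
Cacna1i: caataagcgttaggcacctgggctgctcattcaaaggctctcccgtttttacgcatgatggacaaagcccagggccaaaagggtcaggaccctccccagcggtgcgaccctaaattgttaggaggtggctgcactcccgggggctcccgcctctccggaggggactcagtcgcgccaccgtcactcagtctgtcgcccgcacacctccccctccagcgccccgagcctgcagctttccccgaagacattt
Cacna2d1: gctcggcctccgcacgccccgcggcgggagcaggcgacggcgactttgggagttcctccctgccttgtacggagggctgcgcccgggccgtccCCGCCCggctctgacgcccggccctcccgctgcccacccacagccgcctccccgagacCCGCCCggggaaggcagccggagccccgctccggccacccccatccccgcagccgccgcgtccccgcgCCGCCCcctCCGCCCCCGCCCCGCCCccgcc

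The Cacna2d1 window held 6 GC boxes and 82.4% G+C, the Cacna1b window 3 and 72.0%, and the Cacna1i window 0 and 62.4%. Of 32851 promoter windows of this length, 32.7% held a GC box, and the median G+C content was 52.4%. None of the 3 windows held the cAMP response element TGACGTCA (1.55% of windows) or TATAAA (12.4% of windows), searched on both strands, and the absence of a match says only that these letters are not in the window. Windows were held for 7 of the 10 genes (10 windows in all). The others were Cacna1a, Cacna1g and Cacna1h.

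The channel genes covered a wide range of levels, with some neighbours near ties. Over all 17 mice the mean levels, in TPM, were 93.0 for Cacna2d1, 87.6 for Cacna1a, 74.6 for Cacna1g, 52.7 for Cacna1e, 46.9 for Cacna2d3, 37.2 for Cacna1d, 33.4 for Cacna1b, 31.1 for Cacna1i, 15.7 for Cacna1h and 15.5 for Cacna1c. Cacna1a exceeded Cacna1g in 16 of 17 mice, and Cacna1g exceeded Cacna1e in 16. Cacna2d1 exceeded Cacna1a in 12, Cacna1e exceeded Cacna2d3 in 13, Cacna1d exceeded Cacna1b in 11 and Cacna1b exceeded Cacna1i in 12, so the order of these neighbours varied between mice. The bottom of the order differed between the 3-week and the 8-week mice, which also differ in line. At 8 weeks Cacna1c exceeded Cacna1h in 12 of 12 mice, and at 3 weeks Cacna1h exceeded Cacna1c in 5 of 5.

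**Figure D1:**
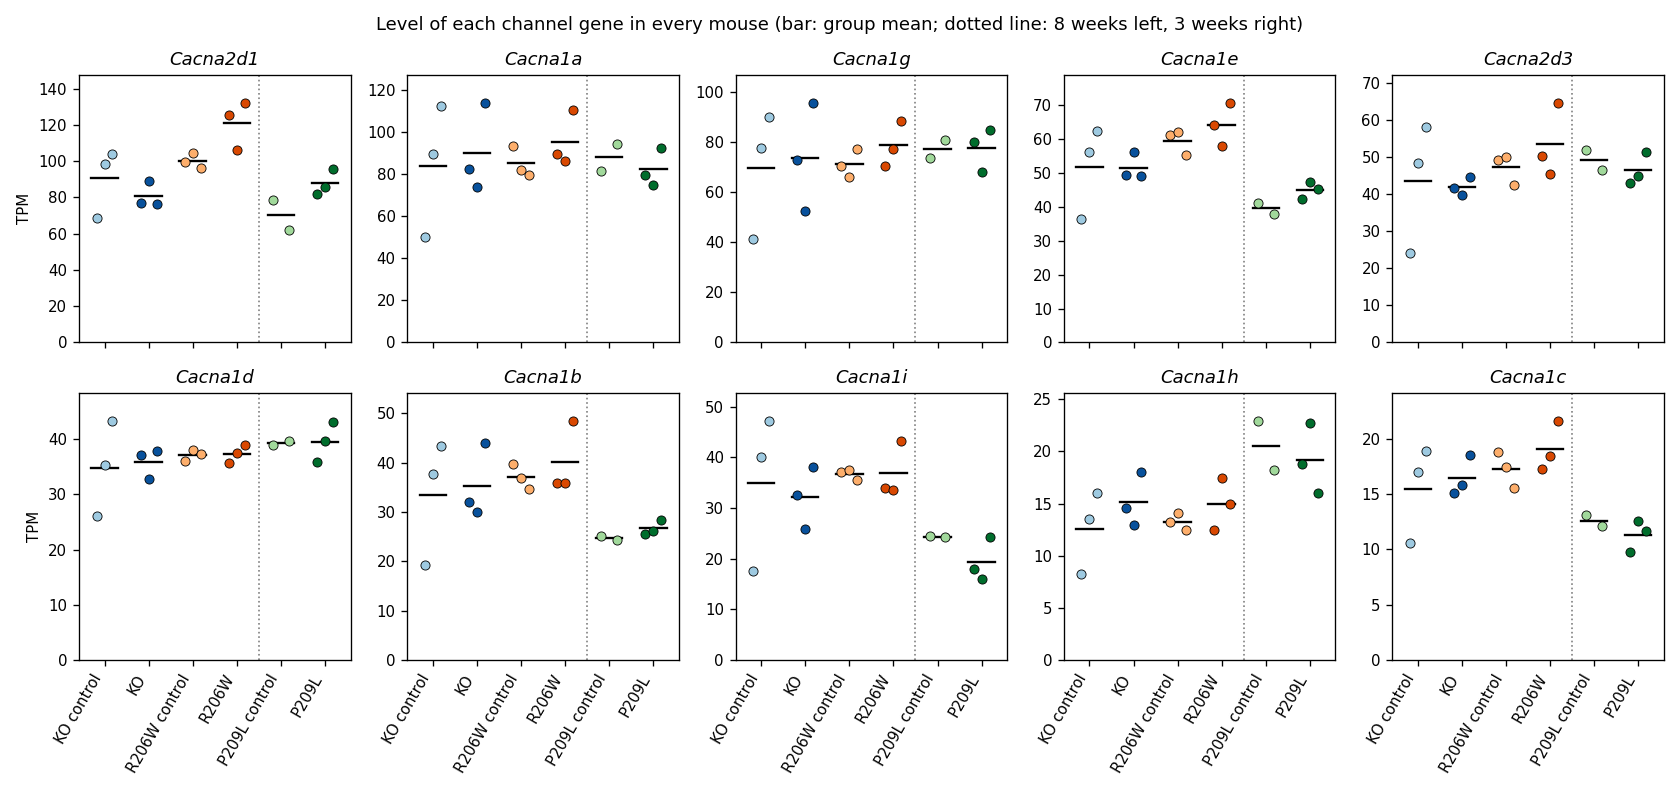
TPM of the 10 channel genes (vertical axis, starting at 0) in each of the 17 mice by group, with a bar for the group mean; the dotted line parts 8-week mice on the left from 3-week mice on the right. Mutants and their own controls overlap for most genes, KO control 1 is the low point of its group in every panel, and Cacna1b, Cacna1c, Cacna1e and Cacna1i lie lower in the 3-week mice than in every other 8-week mouse. Without KO control 1, 31.1% of all genes had 3-week and 8-week mice that did not overlap.

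Summed over the 8 pore genes, the cortex held between 210 and 437 TPM at 8 weeks and between 308 and 346 TPM at 3 weeks. T-type genes took the largest share, 34.1% ± 1.93 (SD, n = 12) of that sum at 8 weeks and 36.7% ± 1.25 (n = 5) at 3 weeks. The P/Q-type gene took 24.7% ± 1.23 and 26.2% ± 1.55, the R-type gene 16.0% ± 1.84 and 13.3% ± 1.43, the L-type pair 15.1% ± 1.07 and 15.9% ± 0.838, and the N-type gene 10.1% ± 0.530 and 8.02% ± 0.450. These are shares of RNA in whole tissue and do not count channels. Fewer cells of a type and less RNA per cell cannot be told apart in bulk cortex, here or in the comparisons that follow.

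Loss of Hnrnph2 left no channel gene past the threshold. In the KO against KO controls at 8 weeks, 0 of 10 had an adjusted p under 0.05 (limma with Benjamini-Hochberg adjustment over all genes), and 0 of 10 had an unadjusted p under 0.05. Of all 16265 genes, 0.00615% were called, which is 1 gene. Estimates were above 0 for 8 of 10 genes, and for 10942 of all 16265. The median log2 change was 0.09, against 0.06 over all genes. The 95% confidence intervals bound these changes loosely. The largest estimate was 0.29 for Cacna1h (SE 0.20, interval −0.14 to 0.71, adjusted p = 0.999), and the lowest was −0.14 for Cacna2d1 (SE 0.15, interval −0.45 to 0.17, adjusted p = 0.999).

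The count of KO estimates above 0 depended on single mice. Cacna1a, the P/Q-type pore, was at 50.4, 89.6 and 112.5 TPM in the KO controls and at 82.8, 73.9 and 113.8 TPM in the KO mice. Cacna1h, the T-type pore named above, was at 8.21, 13.6 and 16.0 TPM in the controls and at 14.6, 13.0 and 17.99 TPM in the KO mice. In both genes the lowest value was that of KO control 1, and the groups overlapped. Without that mouse 1 of 10 estimates was above 0 and the median was −0.20, against −0.06 over all genes, with Cacna1h at 0.030, Cacna2d1 at −0.33 (adjusted p = 0.412) and again 0 of 10 past the threshold. Without KO 3, 4 of 10 were above 0 and the median was −0.019, against 0.04 over all genes. With size factors, which rescale each library to a common median, 5 of 10 estimates were above 0. When each mouse was weighted by its agreement with its group (limma's arrayWeights), 1 of 10 was above 0, and Cacna2d1 was called lower in KO mice, at −0.31 (limma adjusted p = 0.04). That fit called 13.3% of all genes in this comparison, with a weight of 0.0818 for KO control 1 and 4.05 for KO control 2. No channel gene had KO values that all lay to one side of the control values, which 6.25% of all genes had.

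In R206W mice 9 of 10 estimates lay above 0, as did those of 8611 of all 16265 genes, and again none of the 10 passed the threshold. The counts were 0 of 10 at an adjusted p under 0.05 and 0 of 10 at an unadjusted p under 0.05 (limma), against 0.0369% of all genes called. The median log2 change was 0.14, where all genes had a median of 0.01. Without R206W 3 the median was 0.042 and 7 of 10 were above 0, and without R206W control 3 it was 0.077 with 9 of 10 above 0. Cacna2d1 had the largest estimate, 0.27 (SE 0.15, interval −0.05 to 0.58, adjusted p = 1). Its levels were 99.5, 104.7 and 95.9 TPM in the R206W controls and 125.2, 106.1 and 131.8 TPM in the R206W mice. The 3 mutants lay above the 3 controls, by little in the case of R206W 2. Cacna2d1 was 1 of 10 channel genes with groups that did not overlap, a pattern found in 16.2% of all genes.

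The other R206W estimates were small beside their errors. Cacna2d3, the second α2δ gene, was at 0.16 (SE 0.23), with R206W mice between 45.6 and 64.6 TPM and controls between 42.6 and 50.2 TPM. Among the pore genes the estimates ran from −0.0031 for Cacna1i (SE 0.26) to 0.16 for Cacna1a (SE 0.23). The L-type gene Cacna1d had the narrowest interval of all, −0.29 to 0.30 around an estimate of 0.01, with controls between 36.0 and 38.0 TPM and R206W mice between 35.6 and 38.9 TPM.

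P209L mice at 3 weeks showed estimates in both directions. The counts were 0 of 10 at an adjusted p under 0.05 and 0 of 10 at an unadjusted p under 0.05 (limma), against 0.0984% of all genes called. Estimates were above 0 for 5 of 10 genes, and for 8696 of all 16265. The median log2 change was −0.04, against 0.02 over all genes. Cacna2d1 was at 78.7 and 62.2 TPM in the P209L controls and at 81.8, 86.0 and 95.6 TPM in the P209L mice, with a log2 change of 0.32 (SE 0.16, interval −0.03 to 0.67, adjusted p = 0.725). All 3 mutants lay above both controls. The gap between the highest control and the lowest mutant was small beside the gap between the controls. Without P209L control 2, the mouse with choroid plexus markers, the log2 change was 0.15 (adjusted p = 1).

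Cacna1i, the T-type pore prominent in the thalamic reticular nucleus, had the lowest P209L estimate, −0.33 (SE 0.29, interval −0.96 to 0.30, adjusted p = 0.9). It was at 24.4 and 24.2 TPM in the controls and at 17.9, 16.1 and 24.2 TPM in the P209L mice, so P209L 3 lay level with the controls while the other 2 mutants lay below. Groups did not overlap for 3 of 10 genes, all higher in P209L mice: Cacna2d1, Cacna1b and Cacna1e. With 3 mice against 2, 24.9% of all genes had groups that did not overlap. Cacna1b (N-type) was at 25.2 and 24.3 TPM in the controls and at 25.5, 26.1 and 28.5 TPM in the P209L mice. Cacna1e (R-type) was at 41.3 and 37.8 TPM in the controls and at 42.4, 47.2 and 45.2 TPM in the P209L mice. Their log2 changes were 0.10 (SE 0.25) and 0.18 (SE 0.17).

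Markers of other cell types also differed between the P209L mice and their controls. Oligodendrocyte markers summed to 3964 and 5928 TPM in the P209L controls and to between 2401 and 3460 TPM in the P209L mice. All 6 had estimates below 0 and an unadjusted p under 0.05, with a median of −0.84, and 0 passed the adjusted threshold (limma). Of skeletal muscle markers 2 of the 3 tested were called lower in the P209L mice, with sums of 112 and 106 TPM in the controls and of 42.4 to 52.8 TPM in the P209L mice. The 3 choroid plexus markers had a median of −1.38 and 0 were called. None of these markers was at 0 in any group, and their part in the P209L estimates of the channel genes was not tested.

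**Figure D2:**
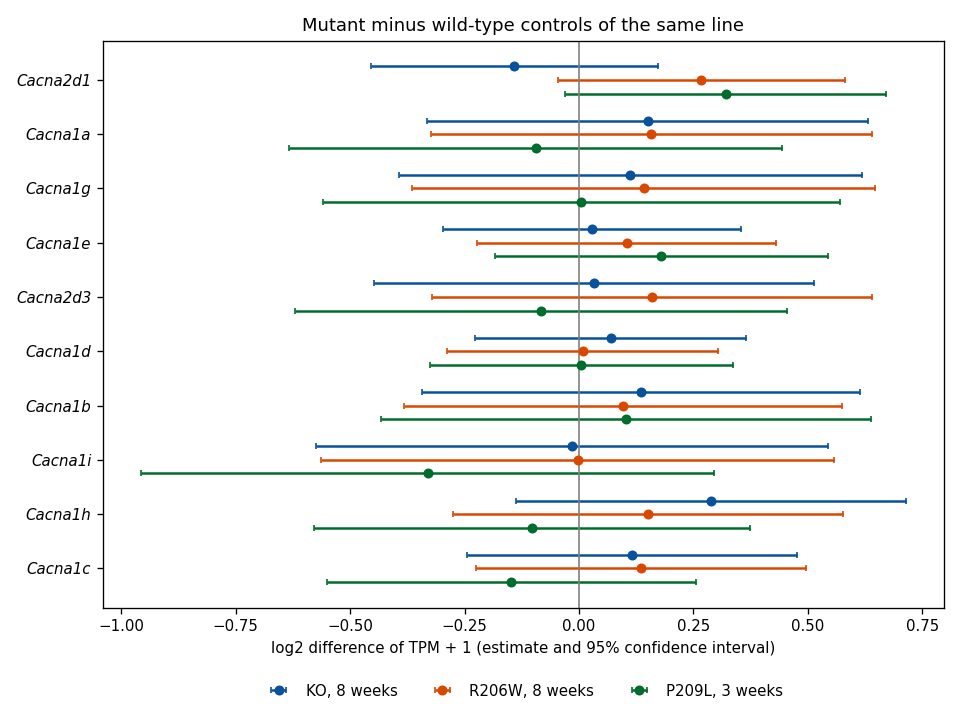
Log2 difference of TPM + 1 between mutants and their own controls (horizontal axis) for the 10 channel genes, with points for limma estimates and bars for 95% confidence intervals, with blue for 8-week KO, orange for 8-week R206W and green for 3-week P209L mice. Every interval includes 0, and the knockin intervals of Cacna2d1 reach least far below it, starting at −0.05 in R206W mice and at −0.03 in P209L mice.

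The effects of the alleles were also set against each other. For Cacna2d1 the KO effect minus the R206W effect was −0.41 on the log2 scale (SE 0.21, interval −0.85 to 0.04, limma adjusted p = 1), and −0.59 (adjusted p = 0.504) without KO control 1. With arrayWeights that difference was −0.52 (limma adjusted p = 0.0417), in a fit that called 1.96% of all genes in this comparison. The P209L effect minus the KO effect was 0.46 (SE 0.22, interval −0.0080 to 0.93, limma adjusted p = 0.629), 0.65 (adjusted p = 0.144) without KO control 1 and 0.29 (adjusted p = 1) without P209L control 2. The knockin effects on Cacna2d1 differed by 0.05 (SE 0.22, interval −0.42 to 0.52, adjusted p = 1). With equal weights none of the 10 genes passed in any of these comparisons by limma, and 0 of 10 had an unadjusted p under 0.05 in each. The shares of all genes called were 0.0307% (KO minus R206W), 0.0492% (P209L minus KO) and 0% (P209L minus R206W, where 647 of all genes had an unadjusted p under 0.05). The R206W and KO comparisons share no mice, but the comparisons of P209L also span the difference in age.

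The controls of the 8-week lines gave a measure of how far wild-type mice differ. R206W controls against KO controls had 0 of 10 channel genes called, 0 of 10 with an unadjusted p under 0.05 and 0% of all genes called by limma, with 507 genes at an unadjusted p under 0.05. All 10 estimates were higher in R206W controls, as were those of 13652 of all 16265 genes. The 10 lay between 0.09 and 0.23 on the log2 scale, against a median of 0.13 over all genes. Without KO control 1, 1 of 10 was higher and the median was −0.13, against −0.0014 over all genes. For Cacna2d1 the difference was 0.17 (SE 0.15, adjusted p = 0.784), and it was −0.02 without KO control 1. With size factors 6 of 10 were higher, with a median of 0.03.

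The larger differences were between 3-week and 8-week mice, where 5 genes were lower or higher in at least 1 of the 2 comparisons made. In the P209L controls against both groups of 8-week controls, Cacna1h was higher and Cacna1e and Cacna2d1 were lower, 3 of 10 genes past the threshold. In the P209L mutants against both groups of 8-week mutants, which share no mice with the first comparison, Cacna1i, Cacna1c and Cacna1e were lower, again 3 of 10. Cacna1e, the R-type pore, was past the threshold in both. Of all genes tested, 36.1% were called in the controls and 45.9% in the mutants. With 10 genes, a count of 3 lies near both shares and was not tested against them. Over the alternative settings the count ran from 0 to 6 in the controls and from 1 to 5 in the mutants. The control calls were close to the threshold, and 0 of 10 passed with no filter on low genes, with only the compared groups in the fit or without P209L control 2, the mouse with choroid plexus markers. Line and age are the same split here. In the mutants the allele differs with them, P209L against KO and R206W, so that comparison is not a measure of age alone. Cacna1h was called in the controls alone while Cacna1i and Cacna1c were called in the mutants alone, without a test of the difference between these comparisons. For controls or mutants alone, the share of all genes whose 3-week and 8-week values did not overlap was not counted.

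Cacna1h, a T-type pore that opens at low voltage, was higher in the 3-week controls. It was at 22.9 and 18.2 TPM in the P209L controls, and the 6 8-week controls ran from 8.21 through a median of 13.4 to 16.0 TPM. Both P209L controls lay above all 8-week controls. The log2 difference was 0.65 (SE 0.20, interval 0.22 to 1.07, limma adjusted p = 0.0207), or 1.56-fold on the scale of TPM + 1. In the mutants it was 0.32 (SE 0.17, interval −0.04 to 0.69, adjusted p = 0.138), with P209L mice at 18.8, 22.7 and 16.0 TPM and 8-week mutants from 12.5 to 17.99 TPM. The mutant groups overlapped. Without P209L control 1 or 2 the adjusted p in the controls was 0.216 or 0.0543, the remaining mouse being taken to vary like the other groups. With size factors the mutant difference was 0.48 (limma adjusted p = 0.0125), where 51.0% of all genes were called.

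Cacna1i, a T-type pore of the same family, lay the other way. It was at 24.4 and 24.2 TPM in the P209L controls against 17.5 to 47.1 TPM in the 8-week controls, and KO control 1 was the only 8-week control below 35 TPM. The log2 difference in the controls was −0.48 (SE 0.26, adjusted p = 0.165), and it was −0.69 (adjusted p = 0.00241) without KO control 1. In the mutants Cacna1i was 0.80 lower at 3 weeks on the log2 scale (SE 0.23, interval −1.29 to −0.32, limma adjusted p = 0.00977). It ran from 16.1 to 24.2 TPM in the P209L mice and from 25.9 to 43.1 TPM in the 8-week mutants. The mutant groups did not overlap, in a comparison where 45.9% of all genes were called. Without P209L 2 the adjusted p was 0.0596. Cacna1g, the most abundant T-type gene, was at 0.17 (SE 0.24) in the controls and 0.05 (SE 0.21) in the mutants, with 3-week mice from 68.0 to 85.0 TPM and 8-week mice from 41.3 to 95.5 TPM.

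The summed share of the T-type genes overlapped between the ages, as did the shares of Cacna1g and Cacna1h, and that of Cacna1i did not. Outside the T-type genes, the shares of Cacna1b and Cacna1c did not overlap either, with Cacna1c at most 4.08% at 3 weeks and at least 4.37% at 8 weeks. A background over all genes was not counted for such shares. In TPM, 16.7% of all genes had 3-week and 8-week mice that did not overlap, or 31.1% without KO control 1. Cacna1i took 5.24% to 7.59% of the 8 pore genes' TPM in the 5 3-week mice and 8.36% to 10.9% in the 12 8-week mice, which did not overlap. Cacna1h took 4.61% to 7.38% at 3 weeks and 3.42% to 4.78% at 8 weeks, which overlapped only through P209L 3 and R206W 2. The ratio of Cacna1h to Cacna1i was between 0.659 and 1.41 at 3 weeks and between 0.339 and 0.520 at 8 weeks. A ratio within a mouse does not depend on the scaling of TPM. KO control 1, at 0.468, lay inside the range of the 8-week mice. It lay above all other 8-week controls, which ran from 0.339 to 0.376. This ratio and the one for Cacna1e and Cacna1d were chosen after the values were seen and have no test.

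**Figure D3:**
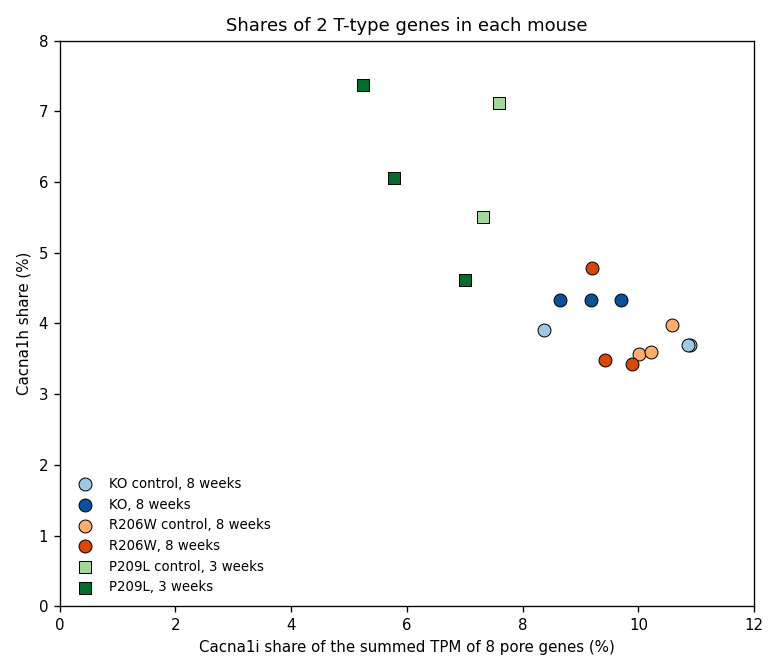
Share of the T-type genes Cacna1i (horizontal axis, percent) and Cacna1h (vertical axis, percent) in the summed TPM of the 8 pore genes, one point per mouse, with squares for 3-week and circles for 8-week mice. The 5 3-week mice lie to the left of all 12 8-week mice, at Cacna1i shares of at most 7.59% against at least 8.36%. No background over all genes was counted for these shares.

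Cacna1e was the gene called in both comparisons. It was at 41.3 and 37.8 TPM in the P209L controls, and the 8-week controls ran from 36.6 through a median of 58.7 to 62.6 TPM, the lowest of them being KO control 1. At 3 weeks its log2 level was 0.46 lower in the controls (SE 0.15, interval −0.79 to −0.14, limma adjusted p = 0.0283). In the mutants Cacna1e was 0.35 lower (SE 0.13, interval −0.63 to −0.07, limma adjusted p = 0.0425). P209L mice were at 42.4, 47.2 and 45.2 TPM, below all 8-week mutants, which ran from 49.1 to 70.6 TPM. Both calls depended on single mice. In the controls the call was lost on leaving out KO control 2, R206W control 2, P209L control 1 or P209L control 2, with the highest adjusted p, 0.195, without the last. In the mutants it was lost on leaving out any mouse other than KO 3 or R206W 2, which is 7 of the 9, with the highest adjusted p, 0.136, without P209L 1. It did not pass there with size factors (−0.19, adjusted p = 0.0753) or with no filter on low genes (adjusted p = 0.0791). The ratio of Cacna1e to Cacna1d, an L-type pore that did not pass in either comparison, was between 0.956 and 1.19 at 3 weeks and between 1.30 and 1.81 at 8 weeks.

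Of the L-type genes, Cacna1c was called in the mutants and Cacna1d in neither comparison, and the difference between the genes was not tested. Cacna1c, the L-type pore also found in vascular smooth muscle, was at 13.1 and 12.1 TPM in the P209L controls and at 11.7, 9.76 and 12.5 TPM in the P209L mice, against 10.6 to 18.9 TPM in 8-week controls and 15.1 to 21.6 TPM in 8-week mutants. The groups of mutants did not overlap. In them Cacna1c was 0.61 lower at 3 weeks on the log2 scale (SE 0.15, interval −0.92 to −0.29, limma adjusted p = 0.00373). In the controls it was at −0.33 (SE 0.17, adjusted p = 0.137), and at −0.45 without KO control 1 (adjusted p = 0.00588). The 4 markers of vascular smooth muscle summed to between 6.75 and 10.7 TPM at 3 weeks and between 7.38 and 46.6 TPM at 8 weeks, and none was at 0 in any group. Of the 3 that could be tested, 3 were called lower in the 3-week mutants and 0 in the 3-week controls. Their part in the Cacna1c difference was not tested. Cacna1d was at 0.14 (SE 0.14, adjusted p = 0.455) in the controls and 0.11 (SE 0.12, adjusted p = 0.491) in the mutants. With size factors it was at 0.25 (limma adjusted p = 0.0221) and 0.27 (adjusted p = 0.006), where 43.8% of all genes were called in the controls.

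Neither gene of the release sites was called in either comparison. Cacna1b was at 25.2 and 24.3 TPM in the P209L controls and at 25.5, 26.1 and 28.5 TPM in the P209L mice, against 19.2 to 43.4 TPM in 8-week controls and 30.1 to 48.4 TPM in 8-week mutants. It was at −0.45 in the controls (SE 0.23, adjusted p = 0.128) and at −0.47 in the mutants (SE 0.20, adjusted p = 0.062). Without KO control 1 the control difference was −0.63 (adjusted p = 0.00232). Its share of the pore genes was 7.33% to 8.50% at 3 weeks and 9.16% to 11.1% at 8 weeks, which did not overlap. No background over all genes was counted for this share. Cacna1a, which shares its role at terminals, was at 0.09 (SE 0.23) in the controls and −0.16 (SE 0.20) in the mutants, with 3-week mice from 75.1 to 94.5 TPM inside the 8-week range of 50.4 to 113.8 TPM.

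Of the α2δ genes, Cacna2d1 was lower in the 3-week controls and Cacna2d3 did not pass in either comparison. The 8-week controls had Cacna2d1 levels from 68.6 through a median of 98.95 to 104.7 TPM, against 78.7 and 62.2 TPM in the P209L controls, so 1 P209L control lay above KO control 1. In the 3-week controls Cacna2d1 was 0.43 lower on the log2 scale (SE 0.15, interval −0.74 to −0.11, limma adjusted p = 0.0342). Without P209L control 2 the difference was −0.26. Among the 8-week controls, the call was lost on leaving out KO control 2, KO control 3, R206W control 1 or R206W control 2. In the mutants it was at −0.17 (SE 0.13, adjusted p = 0.295), with P209L mice from 81.8 to 95.6 TPM and 8-week mutants from 76.1 to 131.8 TPM. Cacna2d3 was at 0.16 (SE 0.23) in the controls and −0.02 (SE 0.20) in the mutants.

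**Figure D4:**
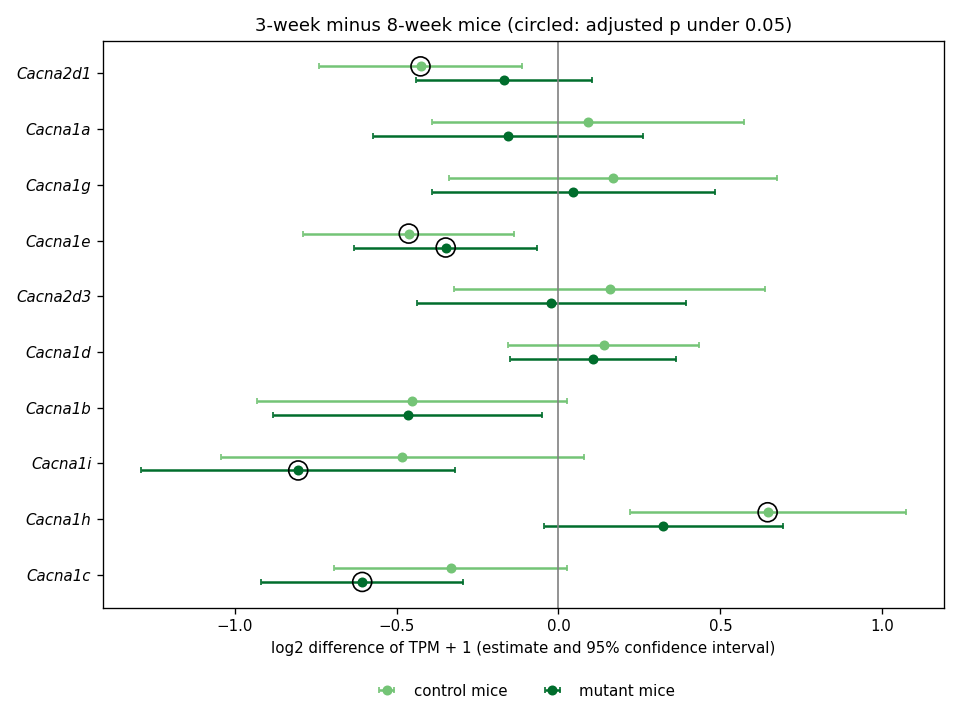
Log2 difference of TPM + 1 between 3-week and 8-week mice (horizontal axis) for the 10 channel genes, with limma estimates and 95% confidence intervals, in controls and in mutants; circles mark an adjusted p under 0.05. Cacna1h lies furthest to the right at 0.65 in controls and Cacna1i furthest to the left at −0.80 in mutants, and Cacna1e is circled in both.

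KO control 1 weighed on the age comparison of the controls. Without it 6 of 10 genes passed (Cacna1b, Cacna1c, Cacna1e, Cacna1i and Cacna2d1 lower and Cacna1h higher), with 50.3% of all genes called. In TPM 0 of 10 genes had all 3-week mice to one side of all 8-week mice, which 16.7% of all genes had. Without KO control 1 the count was 4 of 10, with Cacna1b, Cacna1c, Cacna1e and Cacna1i lower in all 5 3-week mice than in the other 11 8-week mice, against 31.1% of all genes. The median log2 difference over all genes was −0.12 in the controls and −0.16 in the mutants, and −0.02 and −0.01 with size factors. The channel genes had medians of −0.12 and −0.16. Cell type markers differed between the 3-week and the 8-week mice as well. Those of excitatory neurons were called lower at 3 weeks for 4 of 5 in the controls and 3 of 5 in the mutants. Among them Camk2a (log2 differences −0.69 and −1.11) and Tbr1 (−0.78 and −0.81) were called lower in both comparisons and Neurod6 (−0.67 and −0.04) in the controls, while Slc17a7 was at −0.36 and −0.33 without a call. Markers of inhibitory neurons summed to between 659 and 777 TPM at 3 weeks and between 539 and 959 TPM at 8 weeks, and of the 6 tested 1 was called lower in the controls, and 3 lower and 1 higher in the mutants. Oligodendrocyte markers were called higher in the 3-week controls for 4 of 6 (median 0.67), and in the mutants 1 of 6 was called lower (median −0.16). Microglia markers were called lower for 3 of 4 in both comparisons (medians −0.42 and −0.69), and endothelial markers for 1 of 3 in the controls and 2 of 3 in the mutants. Of the choroid plexus markers 1 of 3 was called higher in the 3-week controls (median 1.48) and 0 in the mutants. None of these markers was at 0 in any group, and their part in the channel differences was not tested.

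The partners of the channels were lower at 3 weeks where they were called at all. Of a list of 24 other subunits and binding proteins 19 could be tested, and 0 were called in KO, R206W or P209L mice (limma), with 0, 0 and 2 at an unadjusted p under 0.05. With age, 7 of 19 were lower in the 3-week controls and 10 of 19 in the 3-week mutants, and 0 were higher in either, where 24.8% and 32.1% of all genes were called lower. Cacnb4, a β subunit that brings the pore to the membrane, was at 58.0 TPM ± 8.03 (SD, n = 2) in the P209L controls and 146 TPM ± 15.2 (n = 6) in the 8-week controls, a log2 difference of −1.31 (limma adjusted p = 8.29e-05), and was at −0.93 in the mutants (adjusted p = 2.08e-04). Rims1, which tethers channels at release sites, was at −0.72 and −0.76 (adjusted p = 1.01e-04 and 1.35e-05). Stac2, which binds L-type channels, was at −1.18 and −0.87 (adjusted p = 0.00203 and 0.00393).

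Most genes of calcium stores and extrusion were lower at 3 weeks. Of 14 listed genes 13 could be tested, and 0 were called in the mutant comparisons (limma), with 0, 0 and 1 at an unadjusted p under 0.05 in KO, R206W and P209L mice. In the controls 8 of 13 were lower and 1 was higher at 3 weeks, and in the mutants 11 were lower and 1 was higher, beside the same 24.8% and 32.1% of all genes called lower. Itpr1, the release channel of the endoplasmic reticulum that inositol trisphosphate opens, was at 40.6 TPM ± 3.40 (SD, n = 2) in the P209L controls and 205.8 TPM ± 41.3 (n = 6) in the 8-week controls. Its log2 difference was −2.28 in the controls (adjusted p = 7.77e-06) and −2.29 in the mutants (adjusted p = 1.06e-06). The calcium pump gene Atp2b4 was at −1.43 and −1.33, the sodium-calcium exchanger gene Slc8a1 at −1.16 and −0.62, and the ryanodine receptor gene Ryr2 at −0.78 and −0.85. The median over the list was −0.80 in the controls and −0.63 in the mutants, against −0.12 and −0.16 over the 10 channel genes.

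Levels of the channel genes were correlated with each other between the 8-week mice. Over the 12 8-week mice the pairwise Pearson correlations of their log2 levels had a median of 0.846 over 45 pairs, and the highest was 0.972 for Cacna1a and Cacna1b. Without KO control 1 the median was 0.627, and Cacna1h and Cacna2d1 went from 0.316 to −0.241. These values describe mice that share a tissue, a dissection and a TPM total. No median over pairs of other genes was taken, so a correlation particular to the channel genes is not shown. Among all tested genes the log2 levels most like those of Cacna2d1 over these 12 mice were those of Aff2 (r = 0.983) and Galntl6 (r = 0.967). Those most like Cacna1a were Gon4l (r = 0.989) and Asic1 (r = 0.988), and those most like Cacna1g were Zkscan6 (r = 0.986) and Cuta (r = 0.986). Without KO control 1 these correlations were between 0.954 and 0.978 (n = 11).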

How the data were processed

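The values are TPM, deposited by the authors as one table with gene symbols in rows and 17 mice in columns. Per the labels' processing notes, Trim Galore, STAR 2.7.1a, GATK 4.0.4.0 and RSEM were used with mm10; their roles and the annotation are not given in the sources used here. Libraries were made from total cortex RNA with a stranded total RNA kit. TPM keeps no depth and makes each gene a share of its library, so an abundant transcript lowers all others.

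The 120 repeated entries were summed by symbol. Values were analysed as log2(TPM + 1), with fold changes on that scale, which understates changes of low genes. Genes averaging 1 TPM or more over the mice were fitted with limma 3.58.1 in R 4.3.3 (a mean for each of 6 groups, eBayes with trend=TRUE, two-sided), with Benjamini-Hochberg adjustment over all genes of a comparison and a threshold of 0.05. The fit was tested on simulated data with the same spread in every mouse and with changes larger than the mutant estimates of the channel genes. That test does not cover a mouse that stands apart. GENCODE M21 held 98.3% of the symbols. All 10 genes were named by rule, partner and store genes by the smallest p in the control age comparison (up to 4 a list), and like genes by Pearson's r. Values of some listed genes are not reported here. The members and lists were chosen with earlier results of these data known. The labels name separate mice but not litters or batches. Alternatives are given in the closing section.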

Additional observations from a re-analysis of the deposited data

How the results depend on the processing

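The log2 changes of the 10 channel genes against their own controls and with age, those of Cacna2d1 in the other comparisons, and the counts of genes past the threshold were recomputed with other pseudocounts, filters, scalings, fits and weights and with each mouse left out. The count in the age comparison of the controls, 3 of 10, became 0 with no filter, 0 with own groups and 6 with arrayWeights, and it lay between 0 and 6 when 1 mouse was left out. The count in the mutants, also 3, became 5 with quantile normalization and 5 with arrayWeights and lay between 1 and 3 without 1 mouse. The count in KO mice, and that in KO against R206W effects, went from 0 to 1 with arrayWeights, which called 2156 of 16265 genes in KO mice. The counts in all mutant and effect comparisons and between 8-week controls stayed between 0 and 0 without any 1 mouse. The cause of these moves was not tested.

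Changes of sign were confined to estimates that were not past the threshold in the comparison given. In KO mice with size factors Cacna1d was at −0.010, Cacna1e at −0.052 and Cacna2d3 at −0.045, and with quantile normalization Cacna1e was at −0.025 and Cacna2d3 at −0.026. With arrayWeights, in KO mice, Cacna1a was at −0.16, Cacna1b at −0.24, Cacna1c at −0.14, Cacna1d at −0.0056, Cacna1e at −0.15, Cacna1g at −0.19 and Cacna2d3 at −0.25. In R206W mice Cacna1d was at −0.0056 with quantile normalization and −0.025 with arrayWeights. In P209L mice Cacna1d was at −0.021 and Cacna1g at −0.026 with quantile normalization, and Cacna1g was at −0.00027 without mitochondrial genes and −0.061 with arrayWeights. In the age comparison of the controls Cacna1a was at −0.00015 with arrayWeights. In the mutants Cacna1a was at 0.0058 and Cacna2d3 at 0.14 with size factors, and Cacna2d3 was at 0.11 with quantile normalization and 0.024 with arrayWeights.

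Leaving out 1 mouse gave these lowest and highest log2 changes where a sign changed. In KO mice they were −0.18 and 0.39 for Cacna1a, −0.21 and 0.36 for Cacna1b, −0.12 and 0.27 for Cacna1c, −0.12 and 0.23 for Cacna1d, −0.20 and 0.18 for Cacna1e, −0.22 and 0.33 for Cacna1g, −0.43 and 0.25 for Cacna1i, and −0.33 and 0.28 for Cacna2d3. In R206W mice they were −0.044 and 0.17 for Cacna1b, −0.022 and 0.040 for Cacna1d, and −0.12 and 0.059 for Cacna1i. In P209L mice they were −0.20 and 0.0083 for Cacna1a, −0.056 and 0.071 for Cacna1d, −0.062 and 0.097 for Cacna1g, and −0.26 and 0.053 for Cacna1h. For Cacna2d1 they were −0.11 and 0.22 in P209L against R206W effects and −0.018 and 0.28 between 8-week controls. With age they were −0.071 and 0.21 for Cacna1a and −0.025 and 0.28 for Cacna2d3 in the controls, and −0.063 and 0.15 for Cacna1g and −0.096 and 0.049 for Cacna2d3 in the mutants.

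Mice of 2 groups share replicate numbers, but the deviations of same-numbered mice had correlations between −0.113 and 0.331, so the numbers were not taken as pairs. With the replicate number as a block, P209L mice had Cacna1b at −0.0021, Cacna1d at −0.055 and Cacna1g at −0.12, and the counts of channel genes past the threshold stayed at 0 in every comparison but those with age. There the block left 2 in the controls, where Cacna2d1 no longer passed, and gave 4 in the mutants, where Cacna1b passed too. Over all genes the block moved the calls from 16 to 25 in P209L mice and from 8 to 16 in P209L against KO effects. Without read counts, what depth limits could not be measured.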
